A study of Mus musculus with 4 samples.

Results

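The genes described here are 45 genes of fatty acid, sterol, glycerolipid and phospholipid synthesis, chosen by name and not by their measured values, out of 31053 genes counted in both libraries. The nuclei came from lungs of male mice 8 days after injury with bleomycin. In both genotypes alveolar type 2 (AT2) cells, the surfactant-secreting cells of the alveolus, had been labelled with the Rosa26mTmG reporter through SftpcCreERT2, an inducible Cre driven from the surfactant protein C locus, and sorted by their GFP. The control genotype was SftpcCreERT2; Rosa26mTmG, and the other genotype, labelled CKO, carried in addition the floxed prostacyclin receptor allele IPF/F, so that Cre, reporter and bleomycin were common to both. Each genotype had 1 joint library of RNA and open chromatin from the same nuclei. The number of animals behind a library is not stated, and 1 library per genotype allows no test: each interval below is a 95% interval that covers counting error only, and a difference between the libraries cannot be told apart from a difference between genotypes. Ptgir, the gene of the receptor, had 0 UMIs in control AT2-like nuclei, where a count of 3 would be 0.658 CPM (UMIs per 1000000 nuclear-encoded UMIs). It also had 0 UMIs in AT2-like nuclei of the library labelled CKO, so its RNA gave no check of the genotype.

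After filters, 2173 of 13569 control barcodes and 3883 of 10925 barcodes of the library labelled CKO were kept, and 193 barcode sequences occurred in both libraries. Alveolar nuclei were set from clusters made without the 45 genes and without 52 further lipid genes. AT2-like nuclei (1615 control, 1236 CKO) had summed AT2 markers of 10772 and 17576 CPM. All 12 AT2 markers were detected in them, but also in each other class with at least 50 nuclei. The highest sums in other classes were 8151 CPM in control T and NK-like and 9086 CPM in CKO neutrophil-like nuclei. Sftpc, the gene of surfactant protein C, stood at 97.3 CPM in control AT2-like nuclei and at 195 CPM in those of the library labelled CKO. In non-alveolar nuclei it stood at 58.3 and 46.7 CPM. Transitional-like nuclei (272 and 682) had the markers of damage-associated alveolar cells such as Krt8 and Cldn4 at a summed 2625 and 2960 CPM, against 1555 and 1702 CPM in AT2-like nuclei. Cluster 4 had higher sums of the same markers, 3118 and 3821 CPM, and Krt8 itself stood at 225 CPM in control transitional-like nuclei, 263 CPM in control AT2-like nuclei and 295 CPM in control cluster 4, so these markers do not single out the transitional-like class. Cluster 4 (165 and 409 nuclei) had the highest alveolar type 1 (AT1) marker sums, 4342 and 4970 CPM, but Itgb6, a transitional marker, was among its 10 leading genes and no AT1 marker was, so it is called by its number. Within AT2-like nuclei the libraries used different clusters: cluster 1 held 111 control and 1143 CKO nuclei, cluster 2 held 752 and 74, and cluster 3 held 752 and 19. Cluster 2 had no AT2 marker among its 10 leading genes, which included AY036118 and Gm42418, 2 transcripts that overlap ribosomal RNA, and its control nuclei had a median of 1198.5 UMIs, against 2088 over all kept control nuclei. Acoxl, 1 of the 45 genes, was also among the 10 leading genes of cluster 3, although it had been left out of the clustering.

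AT2 cells make the lipid of surfactant, mostly phosphatidylcholine with saturated fatty acid chains, and store it in lamellar bodies. Fatty acids are built from citrate-derived acetyl-CoA by Acly, Acaca and Fasn, elongated by Elovl enzymes, desaturated by Scd enzymes, activated by Acsl enzymes and joined to glycerol by Gpam, Agpat2 and the Lpin phosphatases, with the choline headgroup supplied through Chka, Pcyt1a, Chpt1 and Cept1. Sterols start from the same acetyl-CoA through Hmgcs1 and run over mevalonate, isoprenoids, squalene and lanosterol. The transcription factors SREBP1 and SREBP2, made by Srebf1 and Srebf2, drive many of these genes, and the Insig proteins hold them back when sterol is plentiful.

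The upstream sequences of 6 members that were lower in AT2-like nuclei of the library labelled CKO are shown, because SREBP and its partner NF-Y read short elements in such promoters. Each run is the 250 bases before the gene start, 5′ to 3′ on the gene's strand, from RefSeq on build GRCm38.p6. Capitals mark matches on either strand to the sterol element core TCACNCCAC, to the E-box CACGTG and to CCAAT, which reads ATTGG on the opposite strand. Hmgcs1 lies at chr13:119690101-119690350 on the plus strand, Idi1 at chr13:8885356-8885605 plus, Cyp51 at chr5:4104698-4104947 minus, Srebf2 at chr15:82147019-82147268 plus, Insig1 at chr5:28071162-28071411 plus and Pcyt1a at chr16:32430671-32430920 plus.
Hmgcs1: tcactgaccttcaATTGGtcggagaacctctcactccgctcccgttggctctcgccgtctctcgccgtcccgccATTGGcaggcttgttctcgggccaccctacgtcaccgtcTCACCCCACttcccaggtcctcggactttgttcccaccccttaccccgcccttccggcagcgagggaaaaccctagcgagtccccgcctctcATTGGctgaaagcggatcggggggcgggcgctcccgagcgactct
Idi1: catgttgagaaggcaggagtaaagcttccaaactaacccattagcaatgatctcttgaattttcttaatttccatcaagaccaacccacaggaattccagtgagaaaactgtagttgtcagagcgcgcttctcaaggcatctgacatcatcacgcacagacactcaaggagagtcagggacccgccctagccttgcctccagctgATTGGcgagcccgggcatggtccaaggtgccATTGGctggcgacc
Cyp51: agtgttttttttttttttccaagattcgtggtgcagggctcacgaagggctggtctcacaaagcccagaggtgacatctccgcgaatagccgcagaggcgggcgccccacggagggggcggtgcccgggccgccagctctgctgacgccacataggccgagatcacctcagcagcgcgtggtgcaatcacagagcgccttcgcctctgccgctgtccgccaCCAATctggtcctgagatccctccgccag
Srebf2: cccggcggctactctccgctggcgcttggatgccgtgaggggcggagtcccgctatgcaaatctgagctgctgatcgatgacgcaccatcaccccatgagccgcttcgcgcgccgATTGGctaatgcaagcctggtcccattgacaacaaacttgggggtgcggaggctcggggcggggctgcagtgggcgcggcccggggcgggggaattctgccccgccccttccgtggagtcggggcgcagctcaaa
Insig1: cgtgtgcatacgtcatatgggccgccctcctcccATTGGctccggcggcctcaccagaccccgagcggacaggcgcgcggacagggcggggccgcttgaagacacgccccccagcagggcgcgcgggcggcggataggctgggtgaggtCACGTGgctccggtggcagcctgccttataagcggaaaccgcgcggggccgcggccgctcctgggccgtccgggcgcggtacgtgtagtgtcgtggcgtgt
Pcyt1a: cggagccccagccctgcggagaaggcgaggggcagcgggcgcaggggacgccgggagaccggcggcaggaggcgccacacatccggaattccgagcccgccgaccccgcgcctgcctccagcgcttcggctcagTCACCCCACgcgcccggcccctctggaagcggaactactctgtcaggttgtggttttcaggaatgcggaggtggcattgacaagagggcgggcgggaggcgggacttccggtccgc
In these windows Hmgcs1 had a sterol element core and CCAAT matches, Pcyt1a a sterol element core alone, Insig1 an E-box and a CCAAT match, and Idi1, Cyp51 and Srebf2 had CCAAT matches. CCAAT was also present upstream of Plin2, Pmvk and Gpam, which were higher in AT2-like nuclei of the library labelled CKO.

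RefSeq promoter sequences were found for 37 of the 45 genes, with 54 promoters in all. The genes without an entry were Scd1, Scd2, Sqle, Fdps, Fdft1, Dgat1, Dgat2 and Fabp5. CCAAT was present in 33.8% of 32851 promoters of all genes and in 30 of the 54 member promoters (55.6%). Counted by gene, all 12 sterol synthesis genes in the table and all 4 regulators had a promoter with CCAAT, against 7 of 11 fatty acid genes and 4 of 8 glycerolipid and phospholipid genes. Counted by promoter, CCAAT was in 12 of 15 sterol, 5 of 8 regulator, 7 of 14 fatty acid and 4 of 15 glycerolipid and phospholipid promoters. The last share, 26.7%, was below that of all promoters. The sterol element core was present in 1.05% of all promoters and in 4 member promoters, those of Acsl1, Hmgcs1 and Pcyt1a. Both Pcyt1a promoters overlap and hold the same site, which is thus counted in each. The E-box occurred in 6.02% of all promoters and in 6 member promoters, those of Dhcr7, Elovl5, Hsd17b7, Insig1, Lpin2 and Sc5d. A match is a stretch of letters and shows no binding, and a window without a match shows only that these letters are not in it.

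In AT2-like nuclei the genes did not move together between the libraries. Most stayed within 1.5-fold of the median gene, Plin2, Pmvk and Gpam were higher in the library labelled CKO, and Acoxl, the sterol genes Hmgcs1, Idi1 and Cyp51, the regulators Insig1 and Srebf2, and the choline genes Chka and Pcyt1a were among those lower in it. In these nuclei the median gene itself was 0.42 higher in CKO on the log2 scale, so ratios are given relative to that median gene as centred log2 ratios (CKO over control). The ratio was formed for the 42 of 45 genes with at least 50 UMIs in the 2 libraries together, which left out Elovl6, Dhcr7 and Dgat2. Of the 42, 3 were higher past 1.5-fold, 13 were lower and 26 lay between. Over all 9332 genes with that many UMIs 13.5% were higher and 16.5% were lower. The same shares stand beside the counts of each role group in AT2-like nuclei below. Without centring, 11 members were higher past 1.5-fold and 4 were lower. No share of all genes is set beside these uncentred counts, so they do not set the members apart from other genes. A member with a negative centred ratio smaller in size than 0.42 has the higher CPM in CKO. The members' median was -0.15, with 16 above and 26 below the median gene. Of the 52 further lipid genes, 41 could be compared, and their median was 0.02, and Elovl7 (0.63) on the higher side and Stard4 (-1.05) on the lower side were among those past 1.5-fold.

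**Figure D1:**
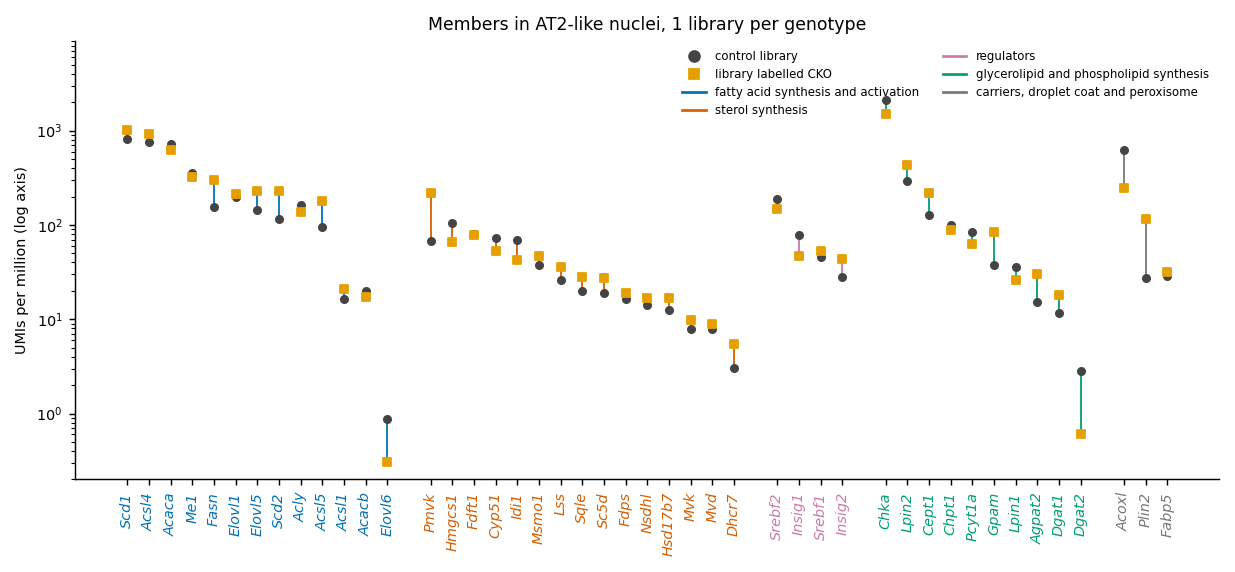
Level of each member in AT2-like nuclei of the control library (1615 nuclei) and the library labelled CKO (1236 nuclei), in CPM on a log axis, grouped by role, with a line joining the libraries. Acoxl stood at 619 in the control and 247 in CKO, and Plin2 at 27.2 and 116.

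Among genes of fatty acid synthesis and activation, 0 of 12 were higher past 1.5-fold and 3 were lower, and the group's median was -0.12. Acaca, the cytosolic acetyl-CoA carboxylase that commits carbon to fatty acid synthesis, had 728 CPM in the control and 627 CPM in CKO, a centred log2 ratio of -0.64 (-0.72 to -0.56). Acly, which makes acetyl-CoA from citrate, had 165 and 138 CPM, at -0.68 (-0.85 to -0.51). Acacb, the mitochondrial carboxylase, was at 19.7 and 17.1 CPM, at -0.63 (-1.14 to -0.13). Acly and Acaca stand at the entry of fatty acid synthesis, and the malonyl-CoA made by Acacb mainly restrains fatty acid oxidation. In CPM without centring each of the 3 differed by less than 1.5-fold.

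Fasn, the fatty acid synthase, had 154 CPM in the control and 299 CPM in CKO (0.54, 0.40 to 0.68), and Scd2, a stearoyl-CoA desaturase, had 116 and 231 CPM (0.57, 0.41 to 0.73). Scd1, the other desaturase, had 808 and 1005 CPM (-0.11, -0.18 to -0.04). Fasn and Scd2 were thus just inside 1.5-fold on the higher side, while Scd1 was near the median gene. Acsl5, which activates long-chain fatty acids, had 95.8 and 178 CPM (0.47, 0.29 to 0.65), Acsl4, which prefers arachidonate, had 762 and 929 CPM (-0.14), and Acsl1 had 16.4 and 21.1 CPM (-0.06, -0.56 to 0.43). The elongases Elovl5 (144 and 227 CPM, 0.23) and Elovl1 (196 and 213 CPM, -0.30) also lay between. Me1, the malic enzyme that supplies NADPH, had 354 and 326 CPM (-0.54, -0.66 to -0.43). Elovl6, which elongates palmitate, had 4 and 1 UMIs, at 0.877 and 0.306 CPM, and gave no ratio.

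Among 14 sterol synthesis genes, 1 was higher and 3 were lower past 1.5-fold, with a median of -0.14. Hmgcs1, which makes HMG-CoA, had 104 CPM in the control and 66.0 CPM in CKO (-1.08, -1.31 to -0.84). Idi1, the isopentenyl diphosphate isomerase, had 69.3 and 42.2 CPM (-1.14, -1.44 to -0.85). Cyp51, the lanosterol demethylase, had 72.6 and 53.5 CPM (-0.86, -1.14 to -0.60). All 3 were lower in CKO in raw CPM as well. Pmvk, the phosphomevalonate kinase of the same pathway, went the other way, with 68.2 and 219 CPM (1.26, 1.06 to 1.45). Fdft1, the squalene synthase, had 79.8 and 78.9 CPM (-0.44, -0.68 to -0.21). Between -0.26 and 0.11 lay Mvd, Fdps, Nsdhl, Msmo1, Mvk, Hsd17b7, Lss, Sqle and Sc5d, and the interval of each of these 9 included 0. Sqle, the squalene epoxidase, for example had 90 UMIs in the control and 92 in CKO (0.09, -0.35 to 0.52). Of the 14 sterol genes, 3 were thus lower, 1 was higher and 10 were within 1.5-fold of the median gene. Over all 9332 genes in these nuclei 16.5% were lower and 13.5% were higher, so these counts do not set the sterol genes apart.

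Of the 4 regulators, Insig1 and Srebf2 were lower. Insig1, which retains the SREBP complex in the endoplasmic reticulum and is itself an SREBP target, had 78.0 CPM in the control and 47.1 CPM in CKO (-1.15, -1.44 to -0.88). Srebf2, the gene of SREBP2, had 189 and 148 CPM (-0.78, -0.94 to -0.61). Srebf1 was at 45.4 and 52.9 CPM (-0.20, -0.50 to 0.10) and Insig2 at 28.1 and 44.0 CPM (0.23, -0.13 to 0.58), both with an interval that included 0.

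Among 9 glycerolipid and phospholipid genes, 1 was higher and 4 were lower, with a median of 0.12. That median turned to -0.38 with thinned nuclei, to -0.52 with at least 200 UMIs per gene, to -0.28 and -0.16 with no mitochondrial limit and a limit of 10%, and to -0.16 in cluster 1 alone, so the group has no stable direction. Chka, the choline kinase that starts phosphatidylcholine synthesis, had 2140 CPM in the control and 1490 CPM in CKO (-0.95, -1.0 to -0.90). Pcyt1a, the rate-limiting enzyme of this pathway, had 84.2 and 63.3 CPM (-0.84, -1.09 to -0.59). Chpt1, the last choline transferase, had 101 and 89.3 CPM (-0.60, -0.82 to -0.39). Cept1, the choline and ethanolamine transferase that acts at the same step, was not lower, with 126 and 217 CPM (0.36, 0.19 to 0.52). Gpam, which adds the first acyl chain to glycerol phosphate, had 37.3 and 84.4 CPM (0.75, 0.47 to 1.04), and Agpat2, which adds the next, had 15.3 and 30.3 CPM (0.56, 0.10 to 1.02). Of the phosphatidate phosphatases, Lpin1 had 35.5 and 26.3 CPM (-0.86, -1.25 to -0.47) and Lpin2 had 294 and 428 CPM (0.12, 0.01 to 0.22). Dgat1, a triglyceride-forming enzyme, had 11.6 and 18.0 CPM (0.21, -0.35 to 0.77), and Dgat2, the other, had 13 and 2 UMIs and gave no ratio. The summed level of the group was 2848 CPM in the control and 2447 CPM in CKO (centred -0.64). Chka gave 9764 of the 12995 control UMIs in that sum, and the acylation genes Gpam and Agpat2 were above the median gene.

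The widest differences were in the group of carriers, droplet coat and peroxisome. Acoxl, which codes for a protein related to peroxisomal acyl-CoA oxidases, had 619 CPM in the control and 247 CPM in CKO (-1.75, -1.86 to -1.63). Plin2, the coat protein of lipid droplets, had 27.2 and 116 CPM (1.67, 1.37 to 1.97). Fabp5, a fatty acid-binding protein, had 28.7 and 31.8 CPM (-0.28, -0.66 to 0.11). With each nucleus thinned to 1000 UMIs, which kept 1339 control and 1134 CKO nuclei and left out 276 and 102, Acoxl was seen in 31.4% (29.0 to 34.0) of control and 15.3% (13.3 to 17.6) of CKO nuclei, by exact binomial intervals. Plin2 was seen in 1.87% (1.21 to 2.74) and 9.52% (7.88 to 11.4). Without thinning, the shares were 45.3% and 29.5% for Acoxl and 5.88% and 21.8% for Plin2, so the shares and the CPM had the same direction.

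**Figure D2:**
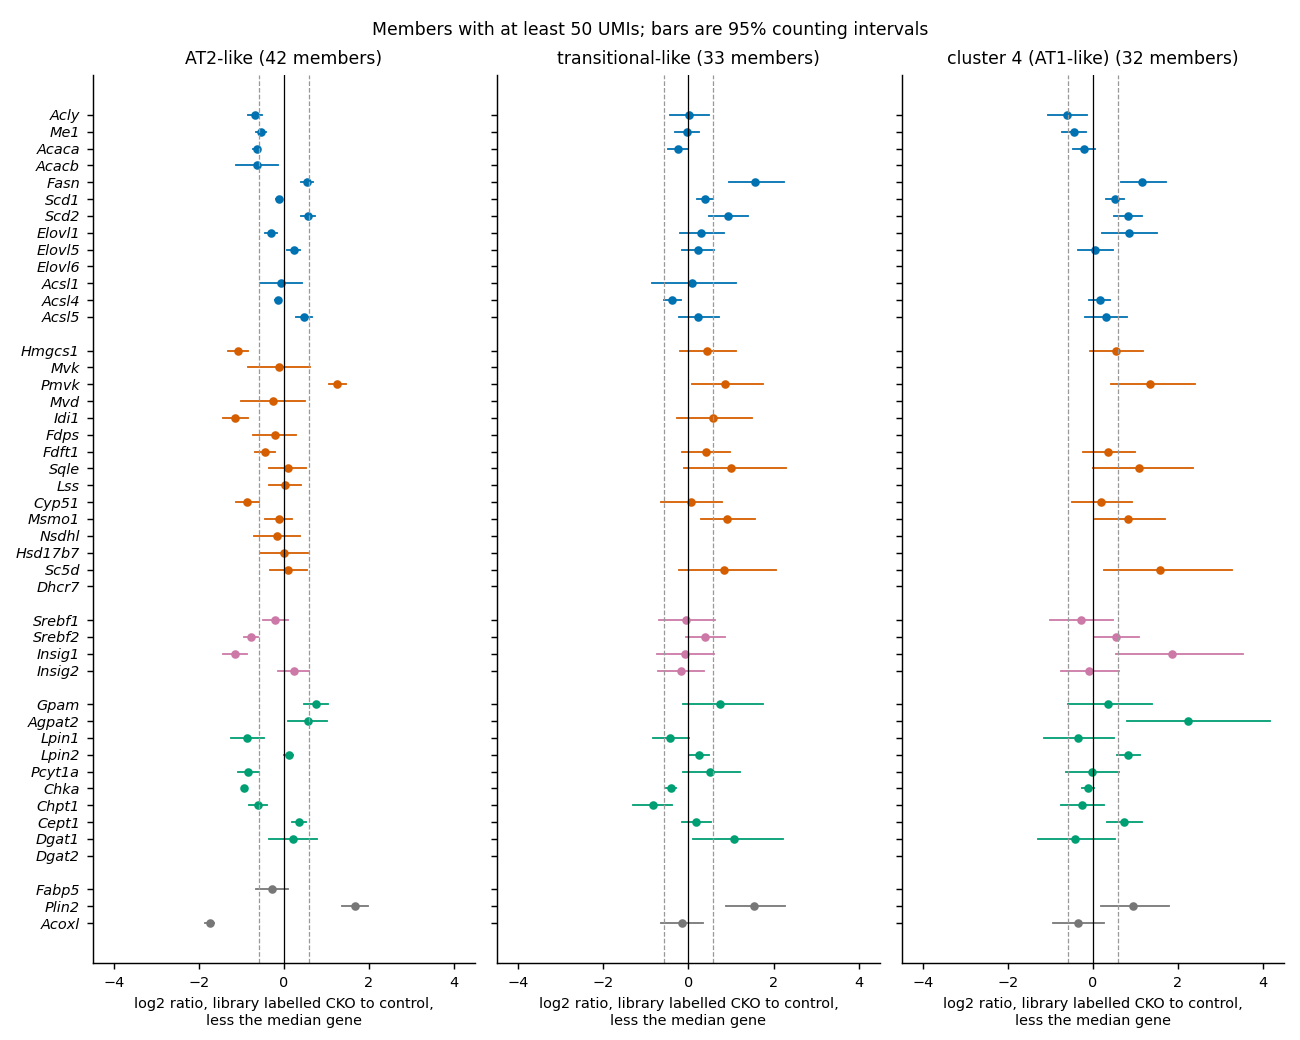
Centred log2 ratio of the library labelled CKO over the control for each member with at least 50 UMIs, in AT2-like nuclei (42 members), transitional-like nuclei (33) and cluster 4 (32), with 95% intervals of counting error and dashed lines at 1.5-fold. In AT2-like nuclei 3 members lie above and 13 below the dashed lines, in cluster 4 12 lie above and 1 below.

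Gene length, the ribosomal RNA-related transcripts and markers of other cells differed between the libraries too. Over all genes in AT2-like nuclei the median centred ratio was 0.19 in the shortest genes, 0.10 in the middle and -0.23 in the longest, split by the genomic extent of the gene. Of the members, 3 of 16 short, 4 of 14 middle and 6 of 12 long ones were lower past 1.5-fold, against 13.1%, 12.9% and 23.0% of all genes, and Acoxl, with an extent of 287 kb, is among the long ones. All 6 neutrophil markers were detected in AT2-like nuclei of the library labelled CKO, with a summed 99.0 CPM, against 1 of 6 and 0.438 CPM in the control, where S100a8, S100a9, Csf3r, Retnlg and Mmp9 were at 0. Macrophage and monocyte markers, of which AT2 cells also express Lyz2, summed to 1566 CPM in the control (9 of 11 detected, Marco and Ccr2 at 0) and 1712 CPM in CKO (11 of 11). In AT2-like nuclei Gm42418 stood at 138170 CPM in the control and 60152 CPM in CKO, and AY036118 at 16551 and 3744 CPM. Club cell markers summed to 356 and 955 CPM with 6 of 6 detected in each. The part of these in the members' differences was not tested.

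The contrast of libraries in AT2-like nuclei also compared mostly different clusters, so the members were compared again in cluster 1 alone, with 111 control and 1143 CKO nuclei. There Plin2 (30.7 CPM in the control and 117 in CKO, 1.67, 0.88 to 2.60), Pmvk (73.3 and 221 CPM, 1.34) and Acoxl (542 and 251 CPM, -1.36, -1.57 to -1.14) had the same direction and were again past 1.5-fold. Of the 40 members with enough UMIs, 3 were higher and 11 were lower past 1.5-fold, beside 17.7% and 12.0% of all 7467 genes, and the median gene was 0.25 higher in CKO. Of the 13 members lower in all AT2-like nuclei, 5 were lower here as well (38.5% of the 13 and 45.5% of the 11). These were Acoxl, Acacb, Idi1, Cyp51 and Lpin1, and the interval of Acacb included 0. No overlap over all genes is set beside these shares, so they do not show whether it is low or high. Of the 1236 CKO AT2-like nuclei 1143 are in cluster 1, so the comparisons share most CKO nuclei and are not independent.

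Several members were level with the median gene in cluster 1. Insig1 had 37.8 CPM in the control and 47.1 CPM in CKO (0.07, -0.68 to 0.91), Srebf2 had 130 and 151 CPM (-0.03), and Pcyt1a had 42.6 and 64.6 CPM (0.35, -0.34 to 1.14). Chka had 1220 and 1509 CPM (0.06, -0.07 to 0.19), and its control level was 1534 CPM in cluster 2 and 2462 CPM in cluster 3. For Insig1 the control levels were 64.1 CPM in cluster 2 and 88.0 CPM in cluster 3, both above its level in cluster 1. Chka, Insig1, Srebf2 and Pcyt1a, lower past 1.5-fold over all AT2-like nuclei, were within 1.5-fold in the nuclei that clustered together. Gpam (73.3 and 85.3 CPM, -0.03), Fasn (251 and 301 CPM, 0.02) and Scd2 (0.03) were not higher there either.

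In cluster 1 the sterol genes had a median of -0.55, with Nsdhl (42.6 and 17.2 CPM, -1.56, -2.35 to -0.70), Msmo1 (82.8 and 46.2 CPM, -1.09, -1.63 to -0.51), Fdft1 (135 and 78.6 CPM, -1.02), Idi1 (61.5 and 41.1 CPM, -0.83) and Cyp51 (73.3 and 52.2 CPM, -0.74, -1.30 to -0.13) past 1.5-fold. Nsdhl and Msmo1 act together in removing the methyl groups of lanosterol. Hmgcs1 was at 80.4 and 65.3 CPM (-0.55, -1.08 to 0.02), an interval that included 0. Elovl1 (376 and 215 CPM, -1.06), Acsl5 (-0.63), Acacb (-1.0, -1.92 to 0.04, with 12 control UMIs), Dgat1 (-0.94, -1.86 to 0.09) and Lpin1 (-0.94) were the other lower members, and Sqle, with 3 control UMIs (1.72, 0.12 to 4.02), was higher. The 111 control nuclei are few, and the sterol genes rest on 3 to 57 control UMIs each.

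**Figure D3:**
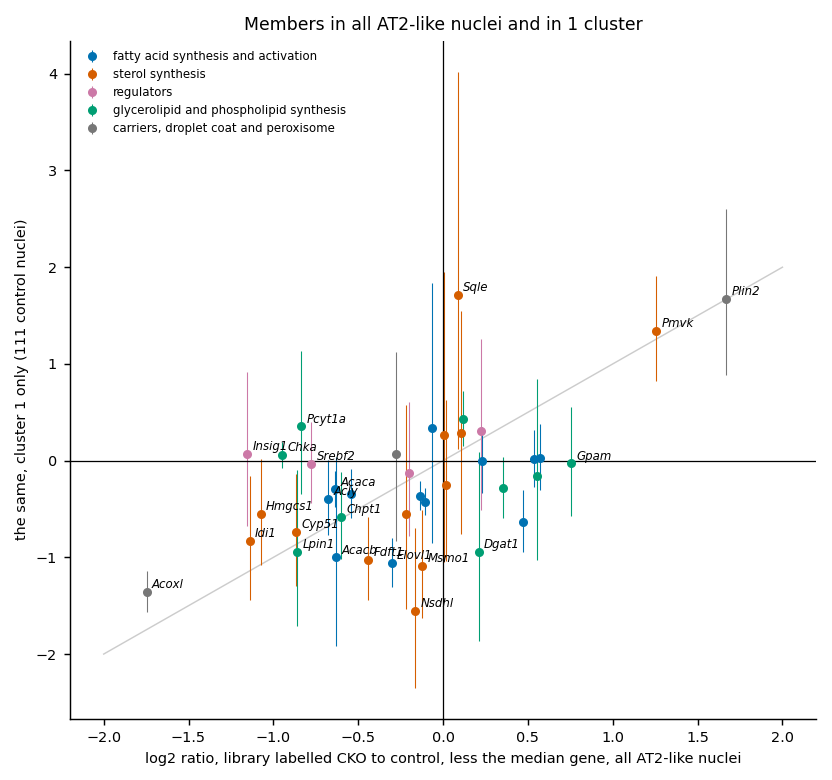
Centred log2 ratio of the library labelled CKO over the control for members in all AT2-like nuclei (x axis) and in cluster 1 alone (y axis), with 95% intervals of counting error on the y axis. Plin2 (1.67 and 1.67), Pmvk and Acoxl (-1.75 and -1.36) lie past 1.5-fold on both axes, while Insig1 is at -1.15 and 0.07.

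Outside the AT2-like class most fatty acid genes were lower in both libraries. In cluster 4 against AT2-like nuclei of the same library, 20 of the 40 members with enough UMIs in both libraries were lower past 1.5-fold in both and 0 were higher, beside 9.98% of all genes lower and 7.97% higher. The members' medians were -1.20 in the control and -0.67 in CKO. A member reached the UMI minimum mostly through the AT2-like nuclei, which were far more numerous, so these counts describe the members that are seen in AT2-like nuclei. The fatty acid genes made up 10 of the 20, out of 12 compared, with medians of -1.20 and -0.98. Acaca had 728 CPM in AT2-like nuclei and 279 CPM in cluster 4 of the control (-1.59, -1.82 to -1.37), and 627 and 281 CPM in CKO (-1.25, -1.40 to -1.11). Fasn had 154 and 56.8 CPM in the control (-1.65) and 299 and 148 CPM in CKO (-1.11, -1.32 to -0.91). Scd1 had 808 and 352 CPM (-1.41) and then 1005 and 581 CPM (-0.89). Each of these genes of de novo synthesis was lower in cluster 4 in either library. Elovl1 (-2.52 and -1.47), Acsl4 (-1.63 and -1.43), Acly (-0.99 and -1.02), Acacb (-2.27 and -1.24), Me1 (-0.76 and -0.77), Elovl5 (-0.65 and -0.94) and Acsl5 (-0.64 and -0.90) were the others.

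Scd2 was not lower in cluster 4 in either library. It had 116 CPM in AT2-like nuclei and 150 CPM in cluster 4 of the control (0.16, -0.17 to 0.47), and 231 and 308 CPM in CKO (0.32, 0.15 to 0.48). Acsl1, the other fatty acid gene that was not lower, had 16.4 and 15.8 CPM in the control (-0.27) and 21.1 and 19.0 CPM in CKO (-0.25). Between cluster 4 and AT2-like nuclei, Scd1 and Scd2 thus differed from each other in each library.

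The sterol genes, Insig1 and Srebf2 had lower ratios in the control than in CKO by their medians or values, a difference that could not be tested. The 12 sterol genes compared had medians of -1.45 in the control and -0.26 in CKO, and 4 of them (Pmvk, Idi1, Fdps and Lss) were lower past 1.5-fold in both. Pmvk had 68.2 CPM in AT2-like nuclei and 17.4 CPM in cluster 4 of the control (-2.18), and 219 and 51.0 CPM in CKO (-2.19, -2.53 to -1.87). Hmgcs1 had 104 and 44.2 CPM in the control (-1.44, -2.05 to -0.89) but 66.0 and 74.2 CPM in CKO (0.07, -0.26 to 0.40). Insig1 had 78.0 and 7.89 CPM in the control (-3.52, -5.15 to -2.28, with 5 UMIs in cluster 4) and 47.1 and 33.2 CPM in CKO (-0.60, -1.07 to -0.15). Srebf2 had 189 and 60.0 CPM in the control (-1.87) and 148 and 101 CPM in CKO (-0.64). Srebf1 (-0.53 and -0.71) was lower past 1.5-fold in CKO but not in the control, and Insig2 (0.34 and -0.08) in neither.

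Acoxl had 619 CPM in AT2-like nuclei and 55.2 CPM in cluster 4 of the control (-3.70, -4.22 to -3.22), and 247 and 50.5 CPM in CKO (-2.39, -2.73 to -2.06). Its levels in cluster 4 were close in the libraries although those in AT2-like nuclei were not. Fabp5 was lower in both (-2.81 and -0.71). Plin2 had 27.2 and 26.8 CPM in the control (-0.23, -1.05 to 0.51) and 116 and 59.9 CPM in CKO (-1.05, -1.38 to -0.73). Of the 9 glycerolipid and phospholipid genes, Chka (2140 and 830 CPM in the control, 1490 and 888 CPM in CKO) and Gpam (-1.19 and -1.69) were lower in both libraries, and the group's medians were -0.74 and -0.28. Of the 37 further lipid genes compared, 9 were lower and Abca1 and Elovl7 were higher in both libraries.

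**Figure D4:**
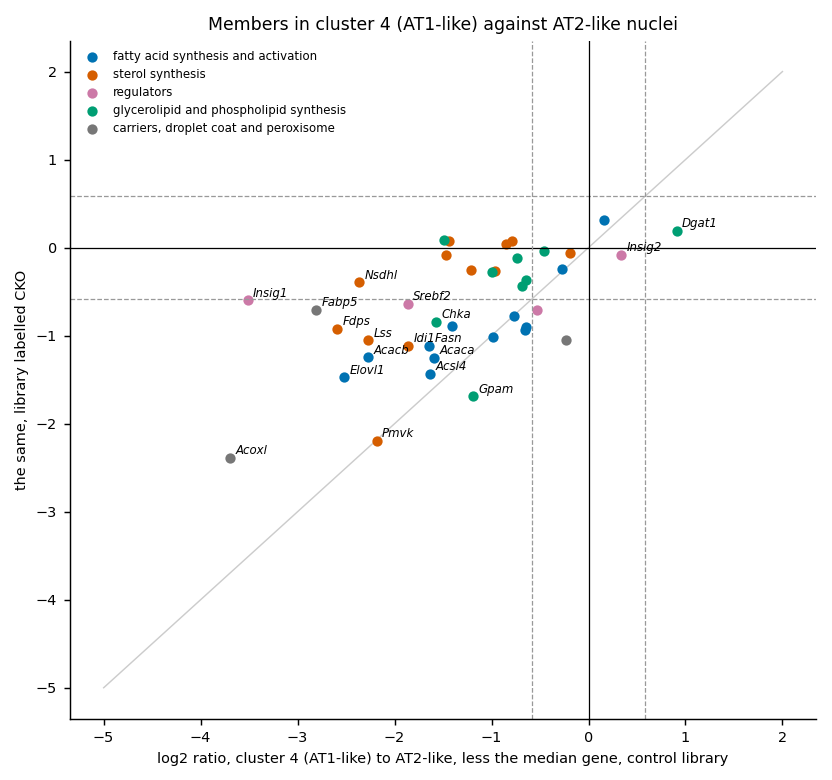
Centred log2 ratio of cluster 4 over AT2-like nuclei for each member, in the control library (x axis) and in the library labelled CKO (y axis), with dashed lines at 1.5-fold. Acoxl (-3.70 and -2.39) and Pmvk (-2.18 and -2.19) are low on both axes, Insig1 (-3.52 and -0.60) mainly in the control, and Scd2 (0.16 and 0.32) on neither.

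Transitional-like nuclei also had most fatty acid genes lower, and differed from cluster 4 in Lpin1 and Scd2. Against AT2-like nuclei, 23 of 40 members were lower past 1.5-fold in both libraries and 1 was higher, beside 11.0% of all genes lower and 7.33% higher. The fatty acid genes were lower in 11 of 12 cases, with medians of -1.25 and -1.04, and here Scd2 was lower too (-1.16 and -0.92). The sterol genes were lower in 6 of 12, with medians of -1.68 in the control and -0.59 in CKO. Lpin1, a phosphatidate phosphatase that also acts as a transcriptional coactivator, was the higher one. It had 35.5 CPM in AT2-like and 92.5 CPM in transitional-like nuclei of the control (1.11, 0.69 to 1.52), and 26.3 and 82.6 CPM in CKO (1.43, 1.04 to 1.83). In cluster 4 it stood at 29.98 and 27.3 CPM, so that Lpin1 was high in transitional-like nuclei and not in either other alveolar class. Its level over all non-alveolar nuclei was 43.7 CPM in the control and 39.8 CPM in CKO.

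Between the libraries, transitional-like nuclei and cluster 4 had more members higher in CKO than lower. With no mitochondrial limit the nuclei were filtered and clustered anew, and the class then named AT1-like had more members lower than higher. In transitional-like nuclei, 33 members could be compared, and 9 were higher and 1 lower past 1.5-fold, beside 13.3% and 9.30% of all 7083 genes. Fasn had 31.3 CPM in the control and 111 CPM in CKO (1.57, 0.95 to 2.24), Plin2 had 27.4 and 95.7 CPM (1.54, 0.89 to 2.27), and Scd2 had 62.6 and 142 CPM (0.93, 0.48 to 1.40). Chpt1 was the lower one, with 88.6 and 59.3 CPM (-0.84, -1.30 to -0.38). All 8 sterol genes compared lay above the median gene, with a median of 0.70, and the summed level of the 15 sterol genes was 250 CPM in the control (216 to 288) and 455 CPM in CKO (424 to 487), a centred ratio of 0.60 (0.37 to 0.83).

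In cluster 4, 32 members could be compared, and 12 were higher and 1 lower past 1.5-fold, beside 14.4% and 9.31% of all 6479 genes. In the AT1-like class of the run with no mitochondrial limit, which need not hold the same nuclei, 3 were higher and 5 lower. With each nucleus of cluster 4 thinned to 1000 UMIs, 5 were higher and 0 lower. No share of all genes is set beside the counts under these settings. Of the 12 higher members in cluster 4, 9 were among the shortest genes and 0 among the longest. Those 9 were out of 14 short members compared, and 24.9% of all short genes were higher. The long members compared numbered 6, and 5.50% of all long genes were higher. Of the 9 higher members in transitional-like nuclei, 7 were among the shortest genes. Those 7 were out of 12 short members compared, and 25.2% of all short genes were higher. The part of gene length in these counts was not tested. Agpat2 had 6.31 CPM in the control and 34.4 CPM in CKO (2.23, 0.80 to 4.15), Insig1 had 7.89 and 33.2 CPM (1.86, 0.55 to 3.53), and Sc5d, a late sterol desaturase, had 7.89 and 27.3 CPM (1.57, 0.25 to 3.26). Each of these rests on 4 or 5 control UMIs. Fasn had 56.8 and 148 CPM (1.16, 0.65 to 1.71), Scd2 had 150 and 308 CPM (0.82, 0.50 to 1.15) and Acly, the lower one, had 96.2 and 73.0 CPM (-0.62, -1.07 to -0.15). The sterol sum was 249 CPM in the control (212 to 291) and 465 CPM in CKO (433 to 498), a centred ratio of 0.68 (0.43 to 0.94).

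Many of these levels lay at or below those of nuclei that are not alveolar. The sterol sum over all non-alveolar nuclei was 321 CPM in the control (268 to 380, 121 nuclei) and 406 CPM in CKO (385 to 426, 1556 nuclei). In the control, 31 of 45 members in transitional-like nuclei and 33 of 45 in cluster 4 were at or below their level in non-alveolar nuclei, and in CKO 22 and 20 were. In AT2-like nuclei 10 and 11 were. No share of all genes is set beside these counts, so they do not set the members apart from other genes. The non-alveolar nuclei include cells that express some members themselves, so their level is a comparison and not a floor, and Insig1 in control cluster 4 (7.89 CPM) lay below its non-alveolar 46.1 CPM. Sftpb, the gene of surfactant protein B, itself stood at 1851 CPM in control and 1850 CPM in CKO non-alveolar nuclei, against 2864 and 5269 CPM in AT2-like nuclei, which gives the scale of alveolar RNA in droplets of other cells. The AT2 markers, with all 12 detected in each class, summed to 3274 CPM in the control and 5697 CPM in CKO in transitional-like nuclei and to 3034 and 6706 CPM in cluster 4, the same direction as the sterol sums. Their part in the members' difference was not tested. Members more than 1.5-fold above the non-alveolar level in cluster 4 were Sqle, Mvk and Chpt1 in the control and Scd2, Me1, Agpat2, Lpin2 and Chka in CKO. In the control, Sqle rests on 2 non-alveolar and 8 cluster 4 UMIs, and Mvk on 1 and 4, too few to place either gene.

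**Figure D5:**
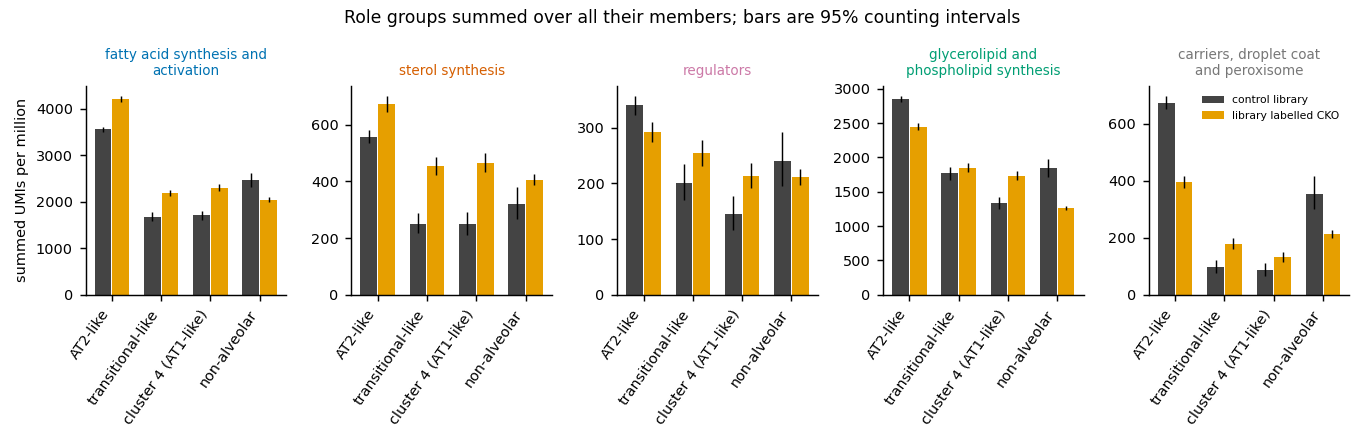
Summed level of the members of each role group, in CPM, in AT2-like nuclei, transitional-like nuclei, cluster 4 and non-alveolar nuclei of both libraries, with 95% Poisson intervals of counting error. The sterol sum in the control is 558 in AT2-like nuclei, 250 in transitional-like nuclei, 249 in cluster 4 and 321 in non-alveolar nuclei.

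Ratios over all alveolar nuclei pooled (2052 control, 2327 CKO) also carry the make-up of the libraries, since AT2-like nuclei, with the higher levels of most members, were 1615 of the control and 1236 of the CKO nuclei. Acaca, for example, was at 622 CPM in the control and 450 CPM in CKO (-0.93, -1.0 to -0.86), further from the median gene than in AT2-like nuclei alone. The fatty acid median was -0.40, and with the classes weighted alike in the libraries it was -0.04.

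In the library labelled CKO, 8 other classes held at least 50 nuclei, and some members were high in these and near 0 in AT2-like nuclei. Elovl6 had 138 CPM (96.3 to 190) in fibroblast-like nuclei and 0.306 CPM in AT2-like nuclei, and Dgat2 had 48.9 CPM (34.6 to 67.1) in neutrophil-like nuclei and 0.611 CPM in AT2-like nuclei. Gpam had 126 CPM (86.8 to 177) in fibroblast-like nuclei, and Acsl1 had 92.7 CPM in neutrophil-like and 85.9 CPM in ciliated-like nuclei. Plin2 was highest in macrophage and monocyte-like nuclei, at 216 CPM (187 to 249), above its 116 CPM in AT2-like nuclei of the same library, and stood at 108 CPM in neutrophil-like nuclei. Fabp5 had 71.0 CPM in macrophage and monocyte-like and 67.3 CPM in dendritic-like nuclei, and Chpt1 had 177 CPM in ciliated-like nuclei. Plin2 and Fabp5 were thus above their AT2-like levels in macrophage and monocyte-like nuclei and Acsl1 in neutrophil-like nuclei, and the library labelled CKO held more nuclei of both classes (330 macrophage and monocyte-like and 482 neutrophil-like nuclei, against 22 and 1 in the control). The part of RNA from these cells in the Plin2 of AT2-like nuclei was not tested.

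Open chromatin at the gene starts differed less than the RNA. For 35 members a region shared by the libraries lay within 1000 bases of the gene start, and 34 had enough counts in AT2-like nuclei. There the median centred ratio was -0.10, with 2 members higher past 1.5-fold and 1 lower, beside 7.59% and 4.88% of all 11047 promoters. Acaca was the furthest above, with 49 counts in the control and 68 in CKO (0.88, 0.33 to 1.44), and Pmvk had 226 and 282 counts (0.73). Me1 was the lower one, with 382 and 177 counts (-0.70). For Pmvk the promoter and the RNA had the same direction, while for Acaca they did not. Of the 13 members lower in RNA, 11 had a promoter value. Beside that of Acaca, the promoter ratio was -0.36 for Acoxl, -0.45 for Hmgcs1, -0.44 for Cyp51, -0.28 for Idi1, -0.26 for Insig1, -0.12 for Chpt1, -0.10 for Chka, 0.05 for Srebf2, 0.09 for Acly and 0.11 for Pcyt1a, and that of Plin2 was 0.48, all within 1.5-fold.

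Between the states, 2 of 34 members, Acaca and Acoxl, had promoters lower past 1.5-fold in cluster 4 than in AT2-like nuclei of both libraries. The number of members higher was 0, beside 1.94% of all promoters lower and 1.10% higher. A promoter reached the count minimum mostly through the more numerous AT2-like nuclei, so these counts describe regions seen in those nuclei. For Acaca in the control, the ratio rests on 2 cluster 4 counts and its interval included 0. Acaca had 6.66 counts per 1000000 in AT2-like nuclei and 2.87 in cluster 4 of the control (49 and 2 counts, -1.12, -4.21 to 0.81), and 11.3 and 2.42 in CKO (68 and 5 counts, -2.21, -3.88 to -0.92). Acoxl had 17.4 counts per 1000000 in AT2-like nuclei and 0 counts in cluster 4 of the control (upper bound of the ratio -1.60), and 12.4 and 4.84 counts per 1000000 in CKO (-1.35, -2.47 to -0.39). The RNA of both genes was lower in cluster 4 as well. Over the 34 members the medians of the promoter ratios were -0.05 in both libraries.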

How the data were processed

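The deposited matrices hold raw counts, UMIs per gene and cut counts per peak for each barcode, made by the authors with Cell Ranger ARC 2.0.1, per the file headers. The submitters' processing notes also list Seurat 4.1.0, Signac 1.6.0 and the builds GRCm39 and GRCm38 without a role, and 70.2% of 25200 gene starts in the files lay within 100 bases of an end of the RefSeq GRCm38 gene extent. Totals were 48378328 UMIs and 47307986 peak counts in the control and 30818808 and 37365247 in the library labelled CKO.

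Barcodes with fewer than 300 genes, with 20% or more mitochondrial UMIs, with UMI totals outside 500 to 25000, or with peak totals outside 1000 to 100000 were dropped. The doublet caller scrublet marked 12 control and 0 CKO barcodes, so doublets were in effect not removed. Nuclei of both libraries were clustered together with scanpy 1.11.5 on 2000 variable genes without the members and the 52 further lipid genes, 30 principal components, 15 neighbours and Leiden resolution 0.6. A cluster was named by its highest mean log2 fold of marker genes (pseudocount 10 CPM) over the mean of the other clusters, with at least 3 markers detected and a score of at least 0.3. This scoring replaced a first version that left control AT2 clusters unnamed, so it was chosen after seeing the data.

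UMIs were summed per library and class and divided by nuclear-encoded UMIs (CPM). Ratios needed 100 nuclei per class and 50 UMIs per gene, were centred on the median gene, and carry exact conditional binomial 95% intervals. With 1 library per genotype no p-value was computed. Promoter counts were summed over shared regions within 1000 bases of a gene start. The code was tested on simulated data. The 45 members were all accounted for. Those described in full are, in each role group, the 3 highest and the 3 lowest in the library comparison and in the comparison of states, and the best known enzymes. Members, gene lists and markers were chosen with earlier results of these data known.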

Additional observations from a re-analysis of the deposited data

Results flagged for a closer look

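Insig1, which holds the SREBP complex back, differed between the libraries in opposite directions in different alveolar nuclei. Relative to the median gene its log2 ratio (CKO over control) was -1.15 (-1.44 to -0.88) in AT2-like nuclei, from 356 control and 154 CKO UMIs, and 1.86 (0.55 to 3.53) in cluster 4, from 5 and 56 UMIs. With 1 library per genotype the difference between these effects was not tested. In cluster 1, the AT2-like cluster that both libraries shared, the ratio was 0.07 (-0.68 to 0.91), and in transitional-like nuclei it was -0.09 (-0.74 to 0.59). Insig1 stood at 46.1 CPM in control and 31.6 CPM in CKO non-alveolar nuclei, with 7.89 and 33.2 CPM in cluster 4, so the control level in cluster 4 lay below that of other cells and the CKO level near it.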

How the results depend on the processing

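Values are medians of centred log2 ratios (CKO over control) or counts of members past 1.5-fold. No share of all genes is set beside the counts under alternative settings, so these counts do not set the members apart from other genes. Where an alternative changed the filters, the doublets, the variable genes or the resolution, the nuclei were clustered anew. Cluster 4 then stands for the class named AT1-like in that run. Of 229 alternatives for the group medians and counts, 181 left the value within its range and 48 moved it. Without centring, the AT2-like medians were 0.30 for fatty acid, 0.54 for glycerolipid and 0.28 for sterol genes, the alveolar medians 0.063, 0.55 and 0.40, and 11 AT2-like and 15 transitional-like members were higher, with 4, 0 and 0 lower in AT2-like nuclei, transitional-like nuclei and cluster 4. With no mitochondrial limit the AT2-like medians were -0.34 (fatty acid) and -0.28 (glycerolipid), the alveolar ones -0.61 and -0.30, and in the AT1-like class of that run 3 members were higher and 5 lower. At a limit of 10% the alveolar fatty acid median was -0.054, the AT2-like glycerolipid median was -0.16 and 3 transitional-like members were lower. Thinning to 1000 UMIs gave 0.033 and -0.38 for AT2-like fatty acid and glycerolipid genes, -0.19 for alveolar fatty acid genes, 5 higher members in AT2-like nuclei, 5 in cluster 4 with 0 lower, and 11 lower in cluster 4 than in AT2-like nuclei. At 2-fold, 6 members in cluster 4 and 4 in transitional-like nuclei were higher, 4 AT2-like members and 0 in either other class were lower, and 10 were lower in cluster 4 than in AT2-like nuclei. In the AT2-like cluster with both libraries the medians were -0.35 (fatty acid), -0.16 (glycerolipid) and -0.55 (sterol), and Chka (0.059), Insig1 (0.069) and Pcyt1a (0.35) reversed, an alternative chosen after seeing the data, as was leaving out the shallow AT2-like cluster. Other UMI minimums gave -0.22 (alveolar fatty acid genes, at least 200), -0.52 (AT2-like glycerolipid, at least 200) and -0.21 (alveolar glycerolipid, at least 20). The alveolar fatty acid median was -0.038 with equal class make-up. With all genes allowed as variable genes, 5 AT2-like and 5 transitional-like members were higher, 0 transitional-like members were lower, and the fatty acid median of cluster 4 against AT2-like nuclei in CKO was -0.76. Leiden resolution 0.3 gave 5 higher AT2-like members and no AT1-like class, hence no value for cluster 4. With at least 1000 UMIs per nucleus, and with called doublets kept, 0 transitional-like members were lower, and the latter gave 2 in cluster 4. The cause of these shifts was not tested. Acoxl (-2.07 to -1.36), Plin2 (1.44 to 1.96) and Idi1 (-1.51 to -0.83) were past 1.5-fold under each of 12 alternatives with a centred ratio. The ratios without centring are not among these 12 or in these ranges. No paired analysis was possible because each genotype has 1 library. Depth limits the rarer members: in cluster 4 13 of 45 members missed the minimum of 50 UMIs over both libraries.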
